A study of Homo sapiens with 12 samples.

Results

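The zinc finger (ZNF) genes of human chromosome 19 were described in HL-60, an established cell line derived from a human acute promyelocytic leukemia, whose cells take on features of neutrophils in medium with dimethyl sulfoxide (DMSO). A gene was taken as a member when its symbol is ZNF followed by digits only and a listed region of chromosome 19 lies in its body or at most 5 kb from its promoter in the authors' annotation. By this rule, 234 genes with 1231 regions were found among 20430 genes and 327931 regions of the 5-hydroxymethylcytosine (5hmC) data, and 151 genes with 268 regions among 12654 genes and 65535 regions of the 5-methylcytosine (5mC) data. All of the 151 genes were also among the 234. The rule itself used the name and the position of a gene, but this group was chosen with earlier results of these data known. A gene is among the 151 only if a region of it was in the 5mC list, which holds regions selected for a difference.

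Differentiated cells had received 1.5% DMSO (211 mM) for 7 days and were collected as viable CD11b+ cells, and undifferentiated cells were collected as viable CD11b- cells without DMSO. Each state had 3 biological replicates of this 1 line. The DNA of each replicate was divided between capture with an antibody to 5hmC (hMeDIP) and capture with an antibody to 5mC (MeDIP), giving 12 libraries. Capture measures the amount of marked DNA pulled down and not the percentage of modified cytosines, it varies with CpG density and copy number, and no input library was analysed here. The state of the cells rests on the labels, since expression was not measured in these libraries.

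ZNF genes encode proteins with tandem C2H2 zinc fingers that read DNA, and chromosome 19 carries the densest family of them in large tandem clusters. Most of these proteins also carry a KRAB domain, which recruits TRIM28 (KAP1) and, through it, the histone H3 lysine 9 methyltransferase SETDB1 and HP1 proteins, and many silence transposable elements. The clusters themselves are known for domains of H3 lysine 9 methylation over the gene bodies, while many of the gene starts lie in CpG-rich DNA. 5hmC is made from 5mC by TET enzymes and is in general found over gene bodies and regulatory DNA.

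Counts in 5hmC regions totalled 18988574, 13010267 and 32495733 in differentiated replicates 1, 2 and 3, and 33693880, 18886675 and 15688562 in undifferentiated replicates 1, 2 and 3. Listed 5mC regions totalled 9598834, 7940755 and 9670011 counts in differentiated and 6851769, 6076100 and 6306580 counts in undifferentiated replicates. The 5mC list holds only regions that the authors' test had already placed among the most different, so its totals are not the depth of those libraries and calls in it describe direction and not frequency. A gene or region was called when the adjusted p of edgeR's quasi-likelihood F test was under 0.05 with n = 3 per state, and log2 differences are differentiated over undifferentiated. Levels are given as CPM (counts scaled to the library total) after TMM scaling, which sets the bulk of the features to no net change. Library total here means the summed counts of the listed regions given above, and not all reads of a library. For 5mC this is the sum over the selected list, so CPM and results with library totals carry that selection.

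Over the ZNF genes of chromosome 19, 5hmC was called lower in more genes than higher in differentiated cells. Of the 234 genes, 39 rose and 95 fell, whereas 25.7% of all 20430 genes were called higher and 25.8% were called lower (51.6% in either direction, beside 57.3% of the ZNF genes). In 152 of the 234 ZNF genes, and in 57.1% of all genes, differentiated and undifferentiated values did not overlap. The median log2 difference was -0.18 for the ZNF genes and 0.01 for all genes. Among the 225 ZNF genes of other chromosomes 53 rose and 65 fell, with a median of -0.05, and among the 1310 other genes of chromosome 19 tested 248 rose and 333 fell, with a median of -0.02. With library totals in place of TMM scaling the median of all genes moved to -0.19, and 7 ZNF genes rose and 135 fell. The count of 39 higher genes was 23 without differentiated replicate 1, 19 without undifferentiated replicate 1 and 26 without undifferentiated replicate 2, and DESeq2 gave 22 higher and 66 lower.

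The arms of the chromosome differed in these counts. On the short arm 3 of 82 ZNF genes rose and 45 fell, with a median of -0.26, and on the long arm 36 of 152 rose and 50 fell, with a median of -0.07. The distance of the short-arm median from the median of all genes was -0.27 with TMM scaling and -0.26 with library totals. Other genes of the arms were also split, with 70 higher and 184 lower of 554 on the short arm and 178 higher and 149 lower of 756 on the long arm. Without TMM scaling 1 short-arm ZNF gene rose and 64 fell, and 6 long-arm ZNF genes rose and 71 fell. The 36 long-arm gains became 20 without differentiated replicate 1, 17 without undifferentiated replicate 1 and 24 without undifferentiated replicate 2.

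The arms were also compared within each library, where no scaling between libraries enters. The ratio of short-arm to long-arm ZNF counts in 5hmC was 0.427, 0.429 and 0.446 in differentiated replicates and 0.516, 0.508 and 0.504 in undifferentiated replicates. All 3 differentiated ratios were lower, and the states did not overlap. The same ratio was not made for other genes of the chromosome. The summed level of the 449 short-arm regions was 868 ± 3.03 CPM in differentiated and 993 ± 12.8 CPM in undifferentiated cells, and that of the 782 long-arm regions was 2002 ± 44.2 CPM in differentiated and 1948 ± 28.4 CPM in undifferentiated cells (SD, n = 3 each). The long-arm sums overlapped between the states.

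**Figure D1:**
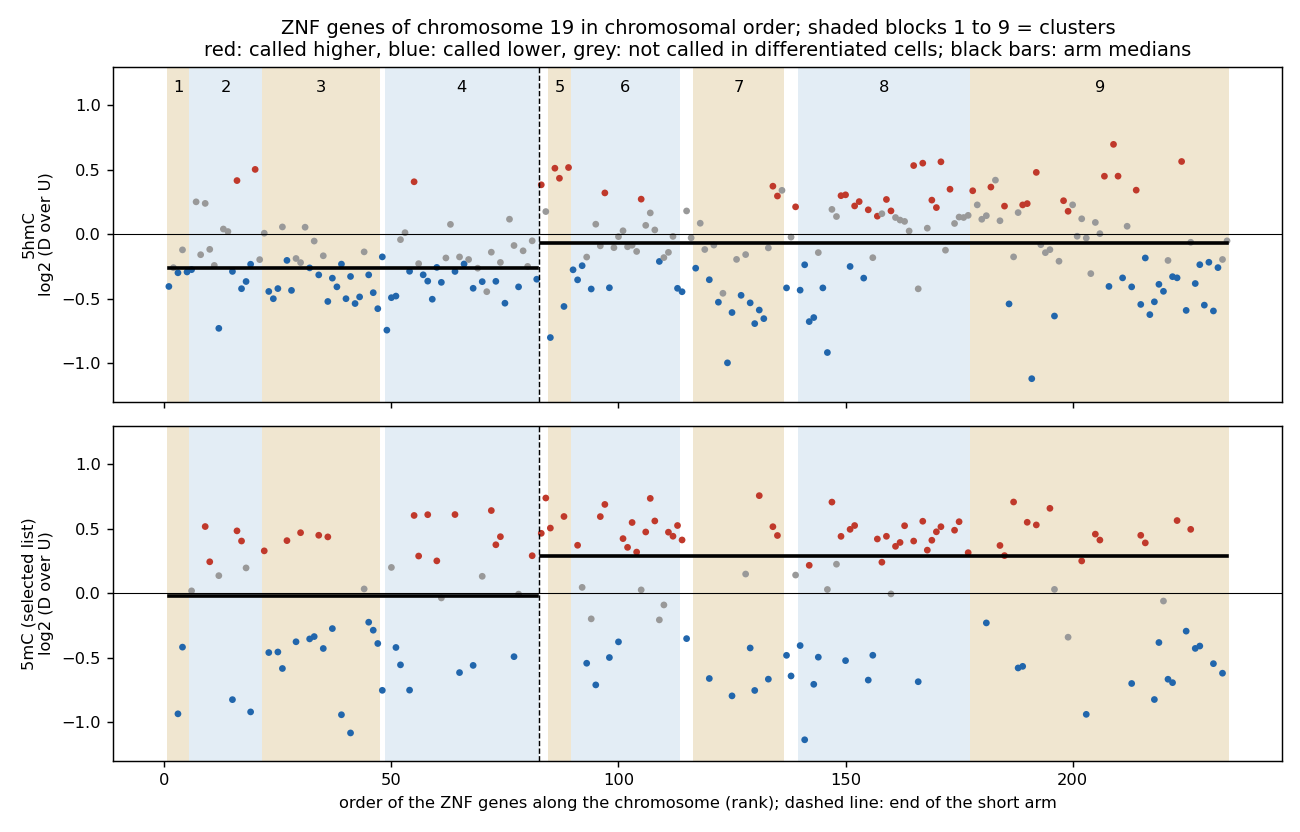
Log2 difference (differentiated over undifferentiated, D over U) of each ZNF gene in chromosomal order for 5hmC (top) and the selected 5mC list (bottom), with clusters 1 to 9 shaded, called genes in red (higher) or blue (lower), and a black bar at the median of each arm. In 5hmC the short-arm bar lies at -0.26 and the long-arm bar at -0.07; with library totals in place of TMM scaling these medians are -0.45 and -0.27, and in 5mC the long-arm median of 0.29 becomes -0.02.

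The starts of the ZNF genes behaved differently from their bodies. A region at distance 0 from a ZNF promoter in the authors' annotation was called a start region, a body region lies elsewhere in the gene, and an upstream region lies outside it within 5 kb of the promoter. The extent of the annotated promoters is not stated, some genes have more than 1 start region, and 110 of the 1231 regions were of this class. Over all 1231 regions 189 rose and 370 fell in 5hmC, with 80 and 578 under library totals, 84 and 104 under DESeq2, 128 and 207 without differentiated replicate 3, and 114 and 205 without undifferentiated replicate 1. Of the start regions 49 rose and 10 fell, with a median of 0.36, whereas 110 of 893 gene body regions rose and 289 fell (median -0.32) and 30 of 228 upstream regions rose and 71 fell (median -0.28). Across all regions tested, 27.0% were called higher and 23.3% lower (50.3% in either direction), and values of the states were separate in 52.2% of all regions and in 618 of the 1231 ZNF regions. Among all 5574 start regions of the data 1969 rose and 655 fell (median 0.31), and among the 701 start regions of other chromosome 19 genes 200 rose and 72 fell (median 0.25).

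These counts depended on the scaling and on single libraries. With library totals in place of TMM scaling, 17 ZNF start regions rose and 18 fell, although their median stayed positive at 0.14, while 63 of the regions not at a start rose and 560 fell with a median of -0.51. The start median lay above the median of all regions by 0.40 with TMM scaling and by 0.39 with library totals. The count of 49 rising start regions became 29 without differentiated replicate 1, 32 without differentiated replicate 3 and 29 without undifferentiated replicate 1, with 5, 6 and 4 start regions falling. DESeq2 called 23 start regions higher and 1 lower.

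Within libraries, the ratio of ZNF start counts to the other ZNF counts in 5hmC was 0.190, 0.182 and 0.178 in differentiated replicates and 0.136, 0.137 and 0.136 in undifferentiated replicates. All 3 differentiated ratios lay above the undifferentiated ones, and the ratio of the means was 1.34. The same ratio over the other genes of chromosome 19 was 0.0942 ± 0.00264 in differentiated and 0.0860 ± 0.000321 in undifferentiated libraries (SD, n = 3 each), a ratio of 1.09. The summed level of the ZNF start regions was 461, 445 and 426 CPM in differentiated replicates, against 352, 350 and 355 CPM in undifferentiated replicates.

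**Figure D2:**
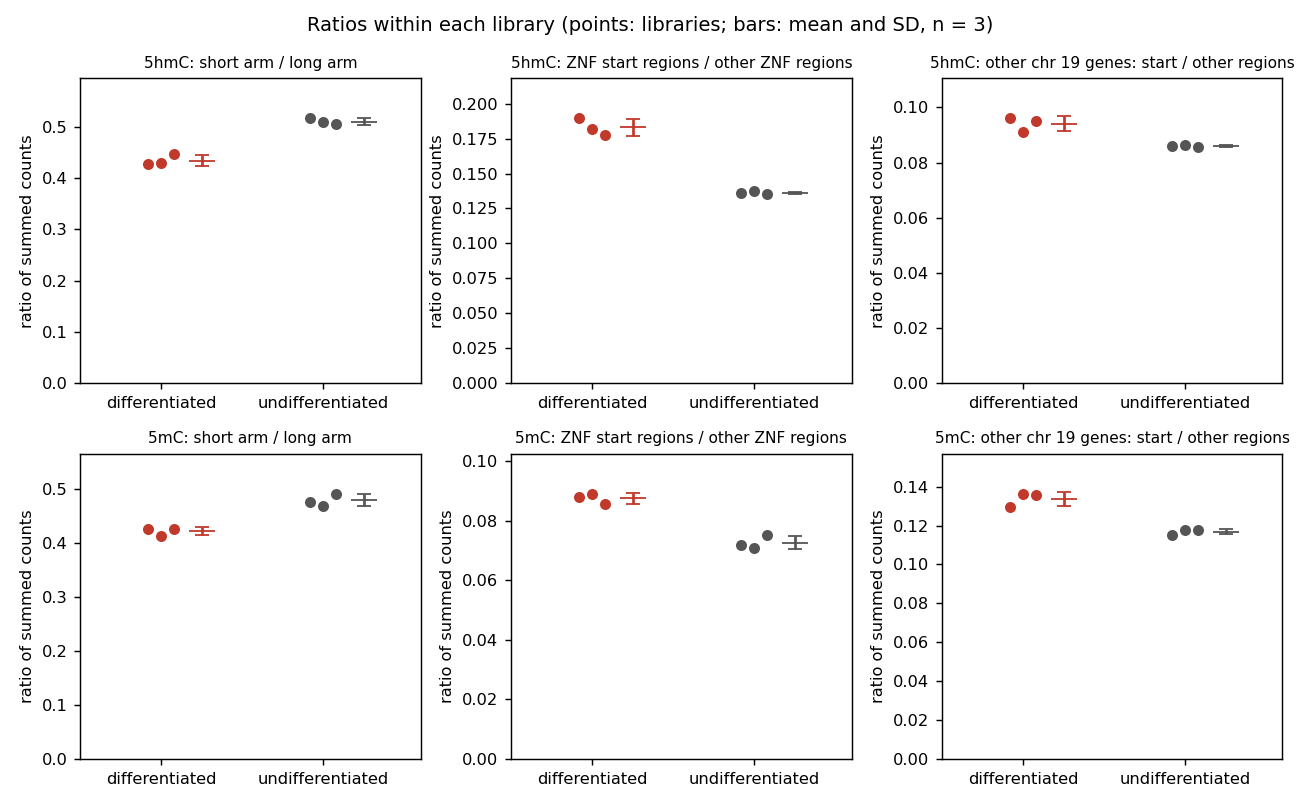
Ratios of summed counts within each library for 5hmC (top row) and the selected 5mC list (bottom row), with points for the 3 libraries of each state and bars for mean and SD. In every panel the differentiated libraries (left) and the undifferentiated libraries (right) do not overlap, and the 5hmC start ratio of the ZNF genes is 0.183 in differentiated and 0.136 in undifferentiated cells.

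CpG islands showed the same direction. In 5hmC 31 of 58 ZNF island regions rose and 1 fell, with a median of 0.42, and 158 of 1173 other ZNF regions rose and 369 fell, with a median of -0.29. Of all 5675 island regions of the data 2391 rose and 214 fell, with a median of 0.38. The ratio of island to other ZNF counts was 0.0980, 0.0951 and 0.0935 in differentiated libraries and 0.0695, 0.0716 and 0.0686 in undifferentiated libraries, without overlap. With library totals 11 ZNF island regions rose and 3 fell, with a median of 0.21, and 15 rose without differentiated replicate 1 and 16 without undifferentiated replicate 1.

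Island and start overlap in part, so they were also separated. Of the 33 start regions inside an island 20 rose and 0 fell, and of the 77 start regions outside islands 29 rose and 10 fell. Of the 25 island regions away from a start 11 rose and 1 fell. The arms differed in the supply of such regions, with 9 island and 29 start regions on the short arm and 49 island and 81 start regions on the long arm. Start regions of the long arm rose in 42 of 81 and fell in 7, with a median of 0.43, and those of the short arm rose in 7 of 29 and fell in 3, with a median of 0.08. The arms also differed away from starts, where 15 of 325 short-arm body regions rose and 119 fell (median -0.39) and 95 of 568 long-arm body regions rose and 170 fell (median -0.25).

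**Figure D3:**
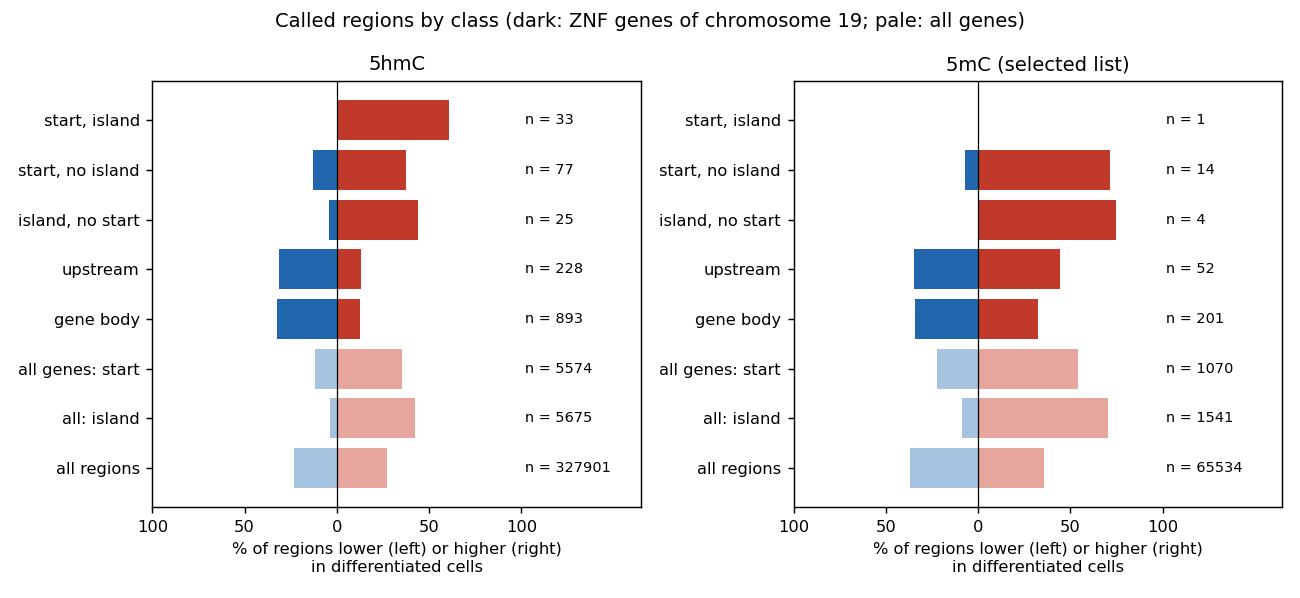
Percentage of regions called lower (left of 0) and higher (right of 0) in differentiated cells by class, for ZNF genes of chromosome 19 (dark bars) and for all genes (pale bars), with the number of regions beside each bar. In 5hmC 60.6% of ZNF start regions in islands were higher and 0% lower, while 12.3% of ZNF gene body regions were higher and 32.4% lower; with library totals in place of TMM scaling the start regions as a whole split into 17 higher and 18 lower.

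The contrast was present inside single genes. Of 101 ZNF genes with a start region and at least 1 other 5hmC region, 81 had a log2 difference at the start above that of the rest of the gene, with a median distance of 0.44 between them. In 33 genes a start region rose while another region of the same gene fell. In 3 genes, ZNF114, ZNF383 and ZNF541, a start region fell while another region rose. These 3 were named after their values were seen. The within-gene counts were not made for other genes, so they do not set the ZNF genes apart. Over all genes, start regions also had a higher median (0.31) than regions not at a start (-0.05).

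**Figure D4:**
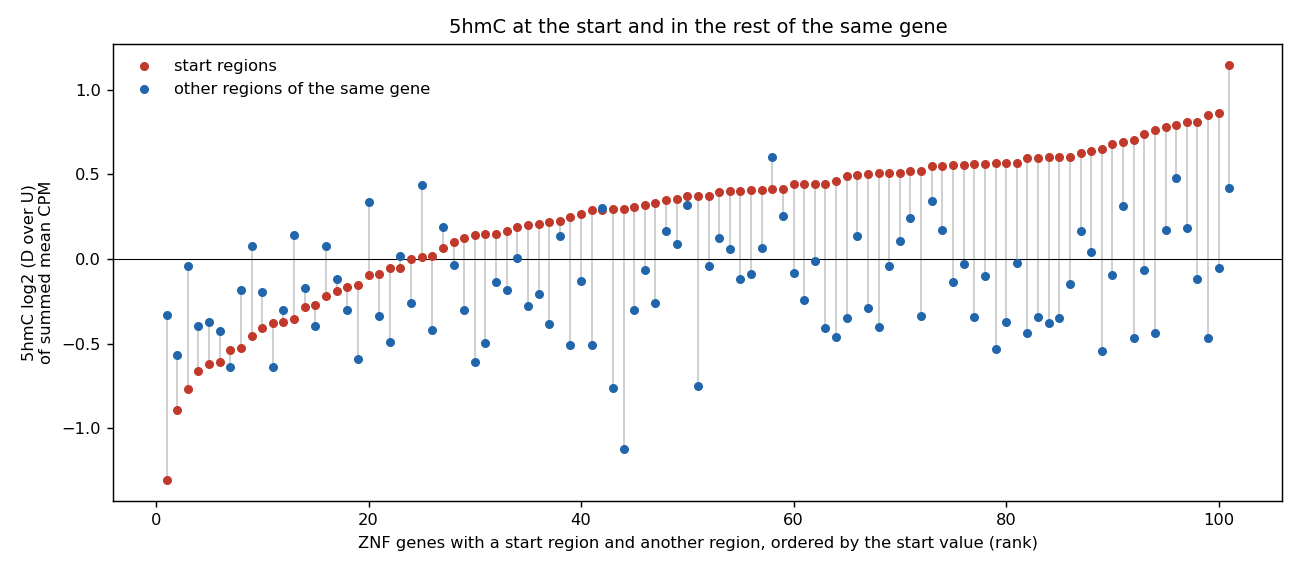
5hmC log2 difference of the start regions (red) and of the remaining regions (blue) of 101 ZNF genes, ordered by the start value, with a grey line joining the values of a gene. The start value lies above the rest in 81 genes, and the medians are 0.37 at the start and -0.15 in the rest.

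RefSeq promoters are shown for the 3 matched genes whose start region rose most and the 2 whose start region fell most, so that their CpG content can be seen. Each sequence runs from 250 bases before to 50 bases after the RefSeq start, 5′ to 3′ on the strand of the gene, from GRCh38.p14, with every CG dinucleotide in capitals. This build differs from the hg19 build of the measured regions. The windows were matched by gene symbol and not by position. Whether they overlap the measured start regions was not tested, so their CG counts may describe neighbouring DNA. The ZNF548 promoter is chr19:57389604-57389903 (plus strand), that of ZNF761 is chr19:53431734-53432033 (plus strand), and that of ZNF808 is chr19:52527418-52527717 (plus strand). The ZNF121 promoter is chr19:9584455-9584754 (minus strand) and that of ZNF302 is chr19:34677428-34677727 (plus strand).
ZNF548: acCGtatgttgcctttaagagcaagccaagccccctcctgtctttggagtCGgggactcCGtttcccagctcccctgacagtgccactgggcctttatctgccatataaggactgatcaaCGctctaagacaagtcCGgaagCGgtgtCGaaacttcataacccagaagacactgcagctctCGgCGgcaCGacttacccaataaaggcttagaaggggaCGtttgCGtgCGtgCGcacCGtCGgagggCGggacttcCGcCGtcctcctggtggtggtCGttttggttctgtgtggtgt
ZNF761: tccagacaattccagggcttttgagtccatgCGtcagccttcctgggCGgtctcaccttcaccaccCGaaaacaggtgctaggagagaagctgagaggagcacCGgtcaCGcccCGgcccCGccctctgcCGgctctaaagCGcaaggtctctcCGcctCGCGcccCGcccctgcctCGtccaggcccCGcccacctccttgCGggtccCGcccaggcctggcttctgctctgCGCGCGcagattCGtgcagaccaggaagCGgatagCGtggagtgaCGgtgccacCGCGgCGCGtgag
ZNF808: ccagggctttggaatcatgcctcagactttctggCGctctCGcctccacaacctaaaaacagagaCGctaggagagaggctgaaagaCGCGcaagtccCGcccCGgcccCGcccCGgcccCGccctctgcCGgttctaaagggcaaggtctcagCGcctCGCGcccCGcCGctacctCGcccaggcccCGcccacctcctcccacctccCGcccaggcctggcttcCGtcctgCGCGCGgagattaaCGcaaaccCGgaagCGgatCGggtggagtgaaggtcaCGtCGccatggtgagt
ZNF121: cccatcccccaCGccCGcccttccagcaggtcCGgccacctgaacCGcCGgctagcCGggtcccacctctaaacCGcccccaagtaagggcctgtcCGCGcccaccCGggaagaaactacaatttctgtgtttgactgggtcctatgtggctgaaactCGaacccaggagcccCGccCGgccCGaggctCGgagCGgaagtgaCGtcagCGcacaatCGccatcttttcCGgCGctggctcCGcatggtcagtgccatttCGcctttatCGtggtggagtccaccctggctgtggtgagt
ZNF302: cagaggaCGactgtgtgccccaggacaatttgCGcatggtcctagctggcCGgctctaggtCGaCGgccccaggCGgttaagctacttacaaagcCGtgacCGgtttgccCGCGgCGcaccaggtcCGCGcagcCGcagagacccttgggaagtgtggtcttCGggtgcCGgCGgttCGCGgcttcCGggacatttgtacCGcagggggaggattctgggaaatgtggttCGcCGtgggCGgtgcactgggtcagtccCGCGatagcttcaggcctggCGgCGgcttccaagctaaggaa

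In these windows the CG count was 20 for ZNF548, 28 for ZNF761 and 29 for ZNF808, whose start regions rose, and 24 for ZNF121 and 28 for ZNF302, whose start regions fell. The shown promoters of genes whose start region fell were thus no poorer in CG than that of ZNF548.

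The ZNF808 start region (hg19 chr19:53031601-53032600, 242 bases from an island) had 10.1, 11.9 and 7.92 CPM in differentiated cells and 4.69, 6.90 and 4.89 CPM in undifferentiated cells. It rose by 0.84 on the log2 scale (SE 0.16, edgeR adjusted p = 4.143e-05), and the states did not overlap. ZNF808 is a KRAB zinc finger protein, and its remaining 8 regions together differed by -0.06. The ZNF761 start region (chr19:53935801-53936600, in an island) had 5.58, 8.15 and 6.01 CPM in differentiated and 3.28, 3.18 and 4.47 CPM in undifferentiated cells, a log2 difference of 0.84 (SE 0.16, edgeR adjusted p = 4.387e-05). The 3 other regions of ZNF761 together differed by -0.47, so its start and its body moved apart.

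The ZNF548 start region (chr19:57901801-57902400) had 1.24, 1.43 and 1.78 CPM in differentiated and 0.760, 0.868 and 0.966 CPM in undifferentiated cells, with a log2 difference of 0.87 (SE 0.26, edgeR adjusted p = 0.00541). It had 16 to 57 counts per differentiated library and 16 to 28 per undifferentiated library, so its values carry more counting error than those of ZNF808. In the other direction, the ZNF121 start region (chr19:9694001-9694400) had 0.338, 0.627 and 0.470 CPM in differentiated and 1.33, 0.772 and 1.45 CPM in undifferentiated cells and fell by 1.36 on the log2 scale (SE 0.33, edgeR adjusted p = 8.241e-04). The ZNF302 start region (chr19:35169201-35169600) had 0.507, 0.806 and 0.407 CPM in differentiated and 1.38, 1.21 and 0.604 CPM in undifferentiated cells, and its states overlapped (log2 difference -1.14, SE 0.33, edgeR adjusted p = 0.00395).

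A gene was matched when a single RefSeq promoter of chromosome 19 carried its symbol, so genes with several promoters were left unmatched. This matched 169 of the 234 genes and left 65 unmatched. The median CG count of the matched promoters in 300 bases was 20, against 14 over all 35116 RefSeq promoters. It was 19 over the 1748 chromosome 19 promoters outside the matched genes, which can include promoters of unmatched ZNF genes. The median was 16 for 65 short-arm genes and 23 for 104 long-arm genes. Motifs were searched as exact letters on both strands and counted separately, so matches may overlap. The ETS-type motif CCGGAAG was found in 46.7% of the ZNF promoters and 10.3% of all promoters, and the GC box GGGCGG in 71.0% of the ZNF promoters and 45.0% of all promoters. GGGCGG was present in 80.0% of the short-arm and 65.4% of the long-arm ZNF promoters. The ZNF143-type motif, ACTACA and TCC with any 2 bases between them, was found in 15.4% of the ZNF promoters and 1.89% of all promoters, with 4.62% on the short arm and 22.1% on the long arm. Its share over the 1748 other chromosome 19 promoters was 3.83%. Among the 28 matched genes whose start region rose, GGGCGG was present in 26, CCGGAAG in 14 and the ZNF143-type motif in 0, and among the 34 whose start region was not called the numbers were 22, 16 and 4. Among the 6 whose start region fell they were 5, 1 and 1, and among the 101 with no start region 67, 48 and 21. The YY1-type motif ATGGCGG was found in 10.1% of the ZNF promoters, 8.12% of the 1748 other chromosome 19 promoters and 5.55% of all promoters.

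Ordered along the chromosome, 225 of the 234 genes fell into 9 clusters of 5 or more genes separated by at most 1 Mb. In hg19 the short arm held cluster 1 (chr19:2818401-2949200, 5 genes from ZNF554 to ZNF77), cluster 2 (chr19:7068801-9885400, 16 genes from ZNF557 to ZNF846), cluster 3 (chr19:11595601-12741200, 26 genes from ZNF653 to ZNF791) and cluster 4 (chr19:19777001-24308200, 34 genes from ZNF101 to ZNF254). The long arm held cluster 5 (chr19:35169201-35453200, 5 genes from ZNF302 to ZNF792), cluster 6 (chr19:36674601-38268800, 24 genes from ZNF565 to ZNF573), cluster 7 (chr19:44033001-45580800, 20 genes from ZNF575 to ZNF296), cluster 8 (chr19:52074401-54079200, 38 genes from ZNF175 to ZNF331) and cluster 9 (chr19:55989401-58990200, 57 genes from ZNF628 to ZNF446).

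Cluster 3 was the one where 5hmC fell most widely. None of its 26 genes rose and 18 fell, with a median of -0.32. It held 9.76%, 9.83% and 10.0% of all ZNF counts in differentiated libraries and 11.9%, 11.5% and 11.4% in undifferentiated libraries, without overlap. Its summed level was 283 ± 1.47 CPM in differentiated and 341 ± 7.75 CPM in undifferentiated cells (SD, n = 3 each). Cluster 4 had 1 gene higher and 17 lower of 34, with a median of -0.26, and cluster 7 had 2 higher and 10 lower of 20, with a median of -0.31.

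Cluster 8 went the other way with TMM scaling, with 14 of 38 genes higher and 8 lower and a median of 0.13; with library totals its median was -0.07, with 2 higher and 11 lower. Its share of all ZNF counts, which needs no scaling, was 21.9%, 23.3% and 21.8% in differentiated and 19.5%, 19.5% and 19.8% in undifferentiated libraries, without overlap. A share also depends on the counts of the other clusters. It places cluster 8 relative to them and cannot show a gain of cluster 8 itself. The 5 genes of cluster 5 split into 3 higher and 2 lower, and the 57 genes of cluster 9 into 13 higher and 21 lower (median -0.08). Cluster 6 had 2 higher and 7 lower of 24 (median -0.10), cluster 2 had 2 higher and 6 lower of 16 (median -0.18), and cluster 1 had 0 higher and 3 lower of 5 (median -0.29). Shares of cluster 9 were 21.2% ± 0.77 in differentiated and 21.0% ± 0.22 in undifferentiated libraries (SD, n = 3 each), and these overlapped, as did those of cluster 5. Shares of clusters 1, 2, 4, 6 and 7 were lower in differentiated libraries, also without overlap, so separate shares were not particular to clusters 3 and 8.

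Per kb of listed region, the median 5hmC level of the ZNF genes was 2.19 CPM in differentiated and 2.54 CPM in undifferentiated cells, with genes between 1.08 and 7.38 CPM per kb in differentiated and between 1.25 and 6.60 CPM per kb in undifferentiated cells. The highest level in both states was that of ZNF331, an imprinted gene at the end of cluster 8. Its 5hmC was 69.1, 92.7 and 64.1 CPM in differentiated and 65.0, 64.1 and 72.8 CPM in undifferentiated cells. Differentiated replicate 2 stood above the other differentiated libraries, the states overlapped, and the log2 difference was 0.15 (SE 0.10, edgeR adjusted p = 0.246), turning to -0.01 without that replicate and to -0.06 with library totals. The adjusted p of ZNF331 ranged from 0.0387 (without differentiated replicate 3) to 0.859 over the alternatives.

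On the short arm only ZNF90, ZNF426 and ZNF812 rose. ZNF90, in cluster 4, had 64.7, 60.8 and 58.5 CPM over 11 regions in differentiated and 46.0, 44.2 and 48.7 CPM in undifferentiated cells. The groups lay well apart, with a log2 difference of 0.41 (SE 0.06, edgeR adjusted p = 1.271e-04), and the call held under every alternative run. ZNF426 had 16.5, 13.3 and 15.1 CPM in differentiated and 10.7, 12.2 and 11.5 CPM in undifferentiated cells, a log2 difference of 0.42 (SE 0.09, edgeR adjusted p = 0.00162). Both of its upstream regions rose, by 0.76 in an island (adjusted p = 2.046e-04) and by 0.49 outside islands (adjusted p = 0.00583), while gene body regions alone gave -0.86 (adjusted p = 0.00484). The call of the whole gene was lost with library totals (adjusted p = 0.106), in a range of 4.951e-05 to 0.106. ZNF812 had 1 region with 2.172, 3.21 and 2.37 CPM in differentiated and 1.75, 1.71 and 1.81 CPM in undifferentiated cells (log2 difference 0.50, SE 0.18, edgeR adjusted p = 0.0349). Its call was lost under library totals, DESeq2, the replicate block and when any of 5 of the 6 libraries was left out, with adjusted p-values from 0.0343 to 0.188.

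The short-arm genes with the largest losses were ZNF101, ZNF559, ZNF791, ZNF799 and ZNF99, and all 5 calls held under every alternative that gave a value. ZNF101 had 6.24, 5.62 and 5.80 CPM in differentiated and 9.67, 8.48 and 11.9 CPM in undifferentiated cells and fell by 0.74 (SE 0.12, edgeR adjusted p = 3.193e-04). ZNF559 had 4.46, 5.08 and 4.80 CPM in differentiated and 7.78, 7.84 and 8.13 CPM in undifferentiated cells and fell by 0.73 (SE 0.10, edgeR adjusted p = 1.346e-04). In each of these the states were separate. ZNF791, with 9 regions at the end of cluster 3, had 16.3, 16.4 and 15.2 CPM in differentiated and 24.4, 23.3 and 23.0 CPM in undifferentiated cells and fell by 0.58 (SE 0.06, edgeR adjusted p = 2.953e-05). ZNF799 fell by 0.54 and ZNF99 fell by 0.54, and neither overlapped between the states.

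On the long arm the largest gains were in ZNF530, ZNF135, ZNF677, ZNF160 and ZNF320. ZNF160, a KRAB protein known as a repressor of TLR4, had 29.7, 31.0 and 30.3 CPM over 9 regions in differentiated and 19.8, 21.5 and 20.9 CPM in undifferentiated cells. It rose by 0.55 (SE 0.06, edgeR adjusted p = 2.745e-05), and the states lay far apart relative to their spread. ZNF320, also in cluster 8, had 8.52, 8.02 and 8.58 CPM in differentiated and 6.12, 5.24 and 6.02 CPM in undifferentiated cells, a log2 difference of 0.53 (SE 0.10, edgeR adjusted p = 8.955e-04). ZNF135, in cluster 9, had 6.12, 5.44 and 5.71 CPM in differentiated and 4.29, 3.43 and 3.79 CPM in undifferentiated cells, with a log2 difference of 0.56 (SE 0.13, edgeR adjusted p = 0.00258). The calls of ZNF160, ZNF320 and ZNF135 held under every alternative that gave a value. ZNF530 rose by 0.70 and ZNF677 by 0.56, but ZNF530 lost its call without undifferentiated replicate 1 (edgeR adjusted p = 0.0597, range 0.00252 to 0.0597), and ZNF677 lost it with library totals (adjusted p = 0.101), with gene body regions alone (0.0719), without differentiated replicate 1 (0.0902) and without undifferentiated replicates 1 (0.0927) or 3 (0.0640), in a range of 0.00832 to 0.101.

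The largest long-arm losses were in ZNF470, ZNF230, ZNF614, ZNF302 and ZNF226. ZNF470 had 1 region with 1.39, 1.52 and 0.874 CPM in differentiated and 2.38, 2.65 and 2.65 CPM in undifferentiated cells, and fell by 1.12 (SE 0.22, edgeR adjusted p = 9.300e-04). ZNF230 fell by 1.00, from 1 region with 7 to 35 counts per differentiated library and 34 to 74 per undifferentiated library. ZNF614 fell by 0.92 and ZNF302 fell by 0.80. ZNF226, with 3 regions in cluster 7, had 3.73, 3.75 and 3.24 CPM in differentiated and 5.71, 5.29 and 6.02 CPM in undifferentiated cells and fell by 0.69 (SE 0.13, edgeR adjusted p = 6.872e-04). In these 5 genes the states did not overlap, and the calls held under every alternative that gave a value.

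Members with a known role were read from a list of 12, of which 11 were tested for 5hmC, and 0 rose, 4 fell and 7 did not pass, beside 25.7% higher and 25.8% lower of all genes. With library totals 8 fell, since ZNF274 (-0.26), ZNF350 (-0.33), ZNF420 (-0.28) and ZNF568 (-0.30) were then also called lower, as were 8559 of all 20430 genes. ZNF91, which represses SVA retrotransposons, had 5.96, 7.22 and 7.30 CPM in differentiated and 9.53, 8.48 and 9.15 CPM in undifferentiated cells and fell by 0.41 (SE 0.10, edgeR adjusted p = 0.00530). ZNF93, known to repress LINE-1 elements and also in cluster 4, had 5.62, 5.53 and 5.43 CPM in differentiated and 5.19, 6.12 and 5.18 CPM in undifferentiated cells. Its states overlapped, with a log2 difference of 0.01 (SE 0.12, edgeR adjusted p = 0.941) that turned to -0.18 with library totals. ZNF154, whose promoter is methylated in many tumours, fell by 0.41 (SE 0.09, edgeR adjusted p = 0.00166), with 7.68, 7.58 and 7.99 CPM in differentiated and 10.7, 10.2 and 9.94 CPM in undifferentiated cells.

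ZNF175 (OTK18), known from HIV-1 infected macrophages, fell by 0.43 (SE 0.10, edgeR adjusted p = 0.00240), and ZNF649 fell by 0.68 (SE 0.15, edgeR adjusted p = 0.00229). ZNF274, which brings SETDB1 to ZNF genes, differed by -0.06, and ZNF568, whose mouse counterpart represses a placental Igf2 promoter, by -0.10. ZNF350 (ZBRK1), a BRCA1 partner, differed by -0.14, and ZNF420 (Apak), a regulator of p53, by -0.09. ZNF382 differed by 0.08 and turned to -0.12 with library totals. ZNF274, ZNF568, ZNF350, ZNF420 and ZNF382 did not pass the test. ZNF350 passed with gene body regions alone (-0.37, adjusted p = 0.0138) and ZNF382 with regions naming 1 gene (0.24, adjusted p = 0.0439).

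Log2 differences spread more widely over single 5hmC regions than over whole genes, here and in the data as a whole. The quartiles were -0.58 and 0.23 for ZNF regions and -0.37 and 0.12 for ZNF genes. They were -0.50 and 0.51 for all regions and -0.26 and 0.25 for all genes. The region with the largest gain outside islands was chr19:53224801-53225200 (hg19) in the body of ZNF611, with 2.48, 3.04 and 2.72 CPM in differentiated and 0.922, 1.01 and 1.03 CPM in undifferentiated cells (log2 difference 1.48, SE 0.22, edgeR adjusted p = 1.158e-06). A region in the body of ZNF567 (chr19:37191601-37192400) rose by 1.38, and a region in the body of ZNF536, which lacks a KRAB domain, rose by 1.29 (chr19:31041401-31041800). The largest loss was chr19:12505801-12506200 in the body of ZNF799, with 0.338, 0.0895 and 0.470 CPM in differentiated and 1.19, 1.06 and 1.09 CPM in undifferentiated cells (log2 difference -1.64, SE 0.35, edgeR adjusted p = 2.363e-04). It had 1 to 15 counts per differentiated library. A region of ZNF175 (chr19:52079201-52079600) fell by 1.58 and one upstream of ZNF460 (chr19:57790201-57790800) fell by 1.56.

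Among island regions, chr19:44039401-44039800 in ZNF575 had 1.75, 1.79 and 1.35 CPM in differentiated and 0.705, 0.530 and 0.664 CPM in undifferentiated cells and rose by 1.27 (SE 0.27, edgeR adjusted p = 2.663e-04). An island region upstream of ZNF528 (chr19:52900601-52901000) rose by 1.09 (SE 0.27, edgeR adjusted p = 0.00105). The states were separate at both. An island region in ZNF568 (chr19:37464201-37464600) rose by 0.90, but its states overlapped and its call was lost without differentiated replicate 1 or undifferentiated replicate 1 and with DESeq2. The only island region that fell lay upstream of ZNF227 (chr19:44715801-44716600) with a log2 difference of -0.66 (edgeR adjusted p = 0.0281), and its adjusted p ranged from 0.00528 to 0.222 over the alternatives.

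In the selected 5mC list, the ZNF genes were called higher somewhat more often than lower. Of 151 genes 72 rose and 58 fell (median 0.15), beside 41.0% higher and 43.2% lower (84.2% called) of all 12654 listed genes, and with library totals this became 17 higher and 68 lower, and with DESeq2 66 higher and 32 lower. In 123 of the 151 genes, and in 77.8% of all listed genes, values of the states were separate. Other genes of chromosome 19 had 201 higher and 387 lower of 679 (median -0.27), and ZNF genes elsewhere 65 higher and 51 lower of 141 (median 0.11). The arms again differed, with 18 higher and 24 lower of 50 short-arm genes (median -0.02) and 54 higher and 34 lower of 101 long-arm genes (median 0.29, and -0.02 with library totals). Other genes of the arms were split in the same direction. On the short arm 61 of 288 were higher and 191 lower (median -0.30). On the long arm 140 of 391 were higher and 196 lower (median -0.20). Within libraries the ratio of short-arm to long-arm 5mC counts of the ZNF genes was 0.426, 0.414 and 0.426 in differentiated and 0.477, 0.470 and 0.491 in undifferentiated libraries, without overlap. This ratio was not made for other genes of the chromosome.

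By cluster, 5mC in cluster 3 had 5 genes higher and 13 lower of 19 (median -0.34), and its share of all ZNF counts was 11.5% ± 0.20 in differentiated and 14.1% ± 0.19 in undifferentiated libraries (SD, n = 3 each). In cluster 8, 20 of 31 genes were higher and 8 lower (median 0.36), with a share of 28.2% ± 0.33 in differentiated and 25.1% ± 0.62 in undifferentiated libraries (SD, n = 3 each). Neither share overlapped between the states, and those of clusters 1, 5, 7 and 9 did not overlap either. Cluster 6 had 13 higher and 4 lower of 22 (median 0.36), and cluster 9 had 13 higher and 14 lower of 30 (median -0.15). With library totals the medians of clusters 6 and 8 were 0.05 each, with 2 higher and 8 lower and with 7 higher and 9 lower.

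Of 268 ZNF regions in the 5mC list 98 rose and 88 fell, beside 35.7% higher and 37.1% lower (72.7% called) of all listed regions, and with library totals 3 rose and 123 fell. In 227 of the 268 regions, and in 86.1% of all listed regions, values of the states were separate. Of 15 start regions 10 rose and 1 fell (median 0.46), of which 0 rose and 1 fell with library totals, and of 5 island regions 3 rose and 0 fell. Among all 1070 listed start regions 54.0% were higher and 22.1% lower (median 0.41). Among all 1541 listed island regions 70.7% were higher and 8.7% lower (median 0.39). Leaving out any 1 library gave 62 to 76 regions higher and 48 to 60 lower, and 5 start regions rose without differentiated replicate 1, differentiated replicate 2 or undifferentiated replicate 2. DESeq2 called 6 of the 268 regions higher and 2 lower. The start region of ZNF701 (chr19:53074201-53075600) had 22.8, 20.8 and 21.0 CPM in differentiated and 15.6, 13.2 and 15.0 CPM in undifferentiated cells, a log2 difference of 0.56 (SE 0.11, edgeR adjusted p = 2.376e-04). The only start region that fell was that of ZNF345 (chr19:37342801-37344400), with 9.24, 12.0 and 11.9 CPM in differentiated and 13.9, 14.6 and 16.0 CPM in undifferentiated cells (log2 difference -0.43, SE 0.13, edgeR adjusted p = 0.0163). ZNF701 and ZNF345 were named after their values were seen.

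Among 5mC genes, ZNF90 rose as it did for 5hmC, with 32.0, 29.8 and 32.4 CPM in differentiated and 23.9, 18.9 and 19.1 CPM in undifferentiated cells (log2 difference 0.60, SE 0.09, edgeR adjusted p = 3.948e-08). It was among the 5 largest of the 18 short-arm gains, with ZNF729 (0.64), ZNF738 (0.61), ZNF626 (0.61) and ZNF558 (0.52). With library totals the calls of ZNF729 (adjusted p = 0.0942) and ZNF626 (adjusted p = 0.0909) were lost. The largest short-arm losses were in ZNF442, which fell by 1.08, ZNF44, which fell by 0.94, ZNF556, which fell by 0.94, ZNF562, which fell by 0.92, and ZNF560, which fell by 0.83. ZNF562 had 7.22, 6.72 and 5.95 CPM in differentiated and 13.0, 13.7 and 11.0 CPM in undifferentiated cells, with clear separation (edgeR adjusted p = 1.982e-07). ZNF90 and ZNF562 had 3 listed regions each and ZNF626 had 2, and the other genes named here had 1. Of the 82 ZNF genes with 1 listed 5mC region 98.8% were called. Such a region was listed because it already differed, so these calls give direction only.

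Long-arm 5mC gains were largest in ZNF227 (0.76), ZNF507 (0.74), ZNF570 (0.74), ZNF582 (0.71) and ZNF432 (0.71). ZNF507, which lies outside the clusters, had 28.8, 26.1 and 28.8 CPM in differentiated and 20.4, 16.7 and 13.0 CPM in undifferentiated cells (SE 0.10, edgeR adjusted p = 2.86e-09). The call of ZNF570 was lost with library totals (adjusted p = 0.162), with DESeq2 (adjusted p = 0.0677) and without undifferentiated replicate 1 (adjusted p = 0.0818), in a range of 0.00851 to 0.162. Losses were largest in ZNF577, which fell by 1.14, ZNF772, which fell by 0.94, ZNF587, which fell by 0.82, ZNF222, which fell by 0.80, and ZNF226, which fell by 0.75. The call of ZNF587 was lost with DESeq2 (adjusted p = 0.0544), without differentiated replicate 1 (adjusted p = 0.0513) and without undifferentiated replicate 3 (adjusted p = 0.0597). ZNF577 had 1.49, 2.52 and 1.87 CPM in differentiated and 3.17, 5.32 and 4.38 CPM in undifferentiated cells (SE 0.27, edgeR adjusted p = 1.523e-04). Tested as a region and adjusted over the tests implied by the authors' list, its edgeR adjusted p was 0.00116. ZNF507 had 4 listed regions and ZNF226 had 2, and the other long-arm genes named here had 1.

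Of the 10 known members listed for 5mC, 5 rose, 4 fell and 1 was not called, beside 41.0% higher and 43.2% lower of all listed genes. ZNF274 rose by 0.50, with 20.2, 21.2 and 17.96 CPM in differentiated and 13.9, 14.6 and 13.4 CPM in undifferentiated cells (SE 0.11, edgeR adjusted p = 9.747e-05). ZNF331 rose by 0.31, with 57.0, 55.2 and 60.9 CPM in differentiated and 45.6, 44.2 and 49.6 CPM in undifferentiated cells (SE 0.06, edgeR adjusted p = 2.152e-05), and unlike in 5hmC its states did not overlap. ZNF568 rose by 0.36, ZNF420 by 0.55 and ZNF649 by 0.22, and ZNF649 turned to -0.09 with library totals and to -0.51 with gene body regions alone. The calls of ZNF274, ZNF331, ZNF420 and ZNF568 were lost with library totals. ZNF154 fell by 0.70, ZNF175 fell by 0.41, ZNF350 fell by 0.50 and ZNF382 fell by 0.71. ZNF154, ZNF175, ZNF382 and ZNF420 each rested on 1 listed region. The call of ZNF154 was lost with DESeq2 (adjusted p = 0.0985) and without differentiated replicate 2 (-0.47, adjusted p = 0.157) or undifferentiated replicates 1 (adjusted p = 0.0701) or 2 (-0.43, adjusted p = 0.226). That of ZNF175 was lost with DESeq2 and without differentiated or undifferentiated replicate 1, that of ZNF382 with DESeq2 and without differentiated replicate 1, and that of ZNF649 also with DESeq2, TMM on the strongest features and without differentiated replicate 1. ZNF91 had 10.1, 10.8 and 11.1 CPM in differentiated and 10.8, 9.75 and 11.5 CPM in undifferentiated cells and differed by -0.01 (edgeR adjusted p = 0.963), and with library totals it was called lower (-0.32, adjusted p = 0.0406).

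The marks were set side by side over the 151 genes listed for both. In 33 genes (21.9%) both marks fell, in 18 (11.9%) both rose, in 19 (12.6%) 5hmC fell and 5mC rose, and in 3 (1.99%) 5hmC rose and 5mC fell. Over all 12346 genes in both lists, these shares were 22.2%, 18.2%, 3.80% and 3.34%. The 3 genes with higher 5hmC and lower 5mC were ZNF528, ZNF667 and ZNF836, named after their values were seen. Genes with both marks higher included ZNF90, ZNF160, ZNF320 and ZNF677, genes with both lower included ZNF154, ZNF175, ZNF226 and ZNF791, and genes with lower 5hmC and higher 5mC included ZNF302, ZNF649 and ZNF227. Called or not, the marks had the same sign in 97 of the 151 ZNF genes (64.2%) and in 72.1% of the 12346 genes. The region sets overlapped in part: 179 of the 268 5mC regions shared at least 1 base with a listed 5hmC region of chromosome 19, which need not belong to a ZNF gene. Of the 188 pairs 162 had log2 differences of the same sign, and pairs were not counted for other genes. The 5mC regions were selected for a difference and the libraries came from the same DNA preparations, so these counts are a description.

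**Figure D5:**
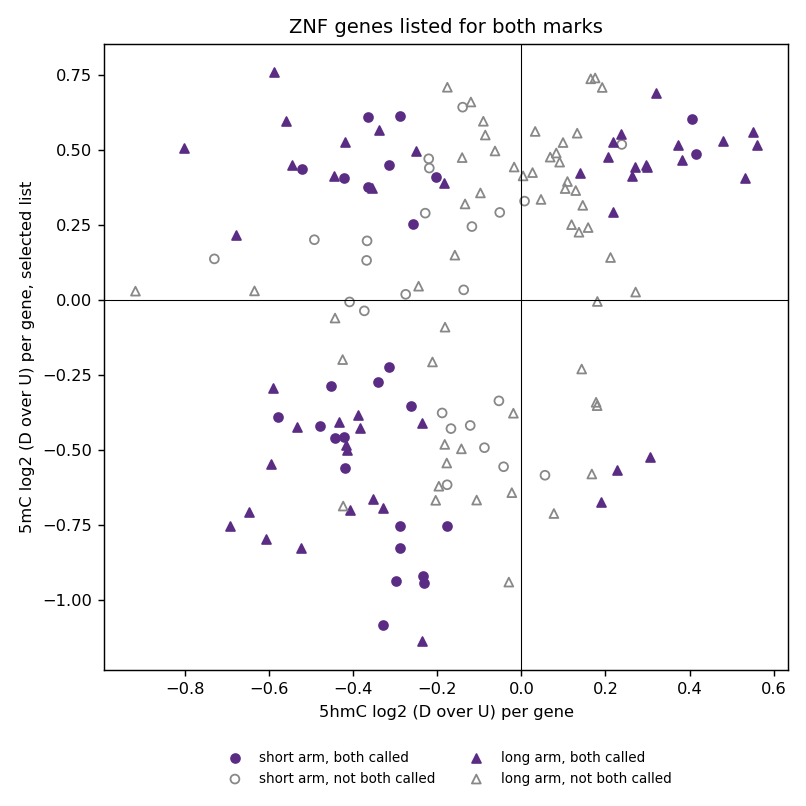
Log2 difference (D over U) of 5hmC (x axis) against that of the selected 5mC list (y axis) for 151 ZNF genes, by arm, with filled marks where both marks were called. Filled marks lie in the lower left for 33 genes, the upper right for 18, the upper left for 19 and the lower right for 3; with library totals in place of TMM scaling all values shift down, by medians over all genes of -0.19 for 5hmC and -0.31 for 5mC.

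The partners of KRAB zinc finger proteins were read from a list of 16 genes. For 5hmC, 3 rose (CHD3, HDAC2 and MORC2), 8 fell (CBX1, CBX5, DNMT1, FAM208A, HDAC1, MPHOSPH8, SETDB1 and UHRF1) and 5 did not pass, beside 25.7% higher and 25.8% lower of all genes. SETDB1, the H3 lysine 9 methyltransferase, had 27.4, 27.2 and 29.7 CPM in differentiated and 39.1, 36.6 and 39.7 CPM in undifferentiated cells and fell by 0.44 (SE 0.06, edgeR adjusted p = 8.364e-05). CBX5 (HP1 alpha) fell by 0.60 and CBX1 (HP1 beta) fell by 0.53. TRIM28, the corepressor itself, had 66.6, 81.4 and 59.5 CPM in differentiated and 60.7, 52.0 and 63.9 CPM in undifferentiated cells, and its overlapping states did not pass the test (log2 difference 0.22, SE 0.10, edgeR adjusted p = 0.0754). Of 12 partners in the 5mC list, FAM208A rose, CBX1, SETDB1 and UHRF1 fell, and 8 did not pass, beside 84.2% of all listed genes called.

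Some limits of position apply to these genes. Neighbouring ZNF genes are close copies of each other, and the sources used here do not say how reads that fit several copies were treated, so values of single genes within a cluster are uncertain to that extent. In 5hmC 20 regions name several ZNF genes and 48 also name a gene outside the family. The limit of 5 kb is a choice: the outermost upstream regions kept, at 4965 bases from ZNF776 and 4954 bases from ZNF714, had log2 differences of -0.78 and -0.67, and the nearest regions left out, at 5004 bases from ZNF90 and 5008 bases from ZNF30, had -0.12 and 0.07.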

How the data were processed

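5hmC and 5mC capture libraries of 3 differentiated and 3 undifferentiated replicates were used. The authors deposited 1 table per mark with raw read counts per region (edges on a 200-base grid), and distances to genes, promoters and CpG islands per the file headers. The deposited log2 fold change has undifferentiated cells on top; the deposited p-value and adjusted p-value showed the 5mC list to be selected (largest 0.0165 and 0.0826), implying 328588 tests. The submitters' processing notes name edgeR 2.11, SICER 1.1, BWA, bedtools 2.17.0 and SAMtools 0.1.18, and the build hg19 (GRCh37); the sources used here do not say how regions were called or multiply mapped reads treated. Of 327949 listed 5hmC regions, 18 without values were left out.

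Counts were summed per gene over regions in the body or at most 5 kb from the promoter and tested in R 4.3.3 with edgeR 4.0.16 (filterByExpr, TMM, quasi-likelihood F test, Benjamini-Hochberg over all genes or regions; 5mC regions over the implied tests, and 5mC genes with no correction for the selection). The 5mC p-values can therefore be too small. All 20430 5hmC and 12654 5mC genes passed filterByExpr, as did all ZNF regions. The arms were divided at the longest stretch without a 5hmC region (chr19:24629400-27731801). Replicates are biological per the labels. The tests were tried on simulated data first. Alternatives were library totals, TMM on the strongest 25% of features (added after the data were seen), DESeq2 1.42.0, no filter, the replicate number as a block, gene body regions only, regions naming 1 gene, and leaving out each library.

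Members and lists were chosen with earlier results of these data known. Named genes were, per mark and arm, up to 5 called genes with the largest rise and up to 5 with the largest fall, the gene with the highest CPM per kb in each cluster, and 12 genes of known role; named regions were the 3 largest rises and falls inside and outside islands; of the cluster leaders the text gives those on which a result turns. Promoter sequences are from RefSeq (GRCh38.p14), 169 matched by symbol. Protein sequences were not used here, and exons and introns were not told apart.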

Additional observations from a re-analysis of the deposited data

How the results depend on the processing

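The short-arm 5hmC median stayed negative and the ZNF start and island medians stayed positive under every alternative run, while counts of calls followed the scaling. With library totals in place of TMM scaling, 5hmC gave 7 genes higher and medians of -0.45 (short arm) and -0.27 (long arm), 80 regions higher and 578 lower, and medians of 0.14 (start), -0.51 (not at a start), 0.21 (island) and -0.50 (other); 5mC gave 17 genes higher, -0.33 and -0.018 for the arms, 3 regions higher, and 0.21, 0.021, 0.24 and 0.054 for the classes in that order. TMM on the strongest features gave 5hmC -0.29 and -0.10 for the arms, 90 regions higher and 580 lower, and 0.16, -0.50, 0.22 and -0.49 for the classes, and 5mC -0.15 and 0.16 for the arms, 2 regions higher, and 0.17, -0.017, 0.20 and 0.016 for the classes. DESeq2 gave 22 higher 5hmC genes, 84 higher and 104 lower 5hmC regions with -0.28 in other regions, 32 lower 5mC genes, and 6 higher and 2 lower 5mC regions. Gene body regions alone gave arm medians of -0.30 and -0.025 (5hmC) and -0.26 and 0.36 (5mC), and regions naming 1 gene gave 0.0079 and 0.32 (5mC). Beyond the scaling itself, the cause of these shifts was not tested. The filter on low counts removed no gene.

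Leaving out 1 library gave 19 to 45 higher and 68 to 93 lower 5hmC genes, arm medians of -0.27 to -0.25 (short) and -0.10 to -0.041 (long), 114 to 205 higher and 205 to 379 lower 5hmC regions, and class medians of 0.30 to 0.38 (start), -0.33 to -0.29 (not at a start), 0.38 to 0.45 (island) and -0.31 to -0.28 (other). For 5mC it gave 68 to 71 higher and 42 to 50 lower genes, arm medians of -0.070 to 0.0064 and 0.25 to 0.30, 62 to 76 higher and 48 to 60 lower regions, and class medians of 0.41 to 0.50, 0.21 to 0.28, 0.41 to 0.54 and 0.26 to 0.30.

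Among the genes named by rule, those that changed sign under library totals were, for 5hmC, ZNF331 (-0.065), ZNF382 (-0.12), ZNF570 (-0.031) and ZNF93 (-0.18), and, for 5mC, ZNF225 (-0.16), ZNF317 (-0.066) and ZNF649 (-0.093). Gene body regions alone turned ZNF426 (-0.86) and ZNF93 (-0.00075) in 5hmC and ZNF649 (-0.51) in 5mC. The TMM on strong features turned ZNF93 (-0.016) in 5hmC and the island region of ZNF317 (-0.027) in 5mC. In 5hmC ZNF93 also turned without differentiated replicate 1 (-0.0023) and without undifferentiated replicates 1 (-0.044) or 3 (-0.01) (leave-one-out range -0.044 to 0.088), and ZNF331 without differentiated replicate 2 (-0.012). In 5mC ZNF91 turned without differentiated replicate 1 (0.03) and without undifferentiated replicates 1 (0.0038) or 3 (0.044), in a leave-one-out range of -0.065 to 0.044.

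Same-numbered replicates did not deviate together (correlations of -0.0033, -0.17 and -0.194 over 5hmC genes and 0.015, -0.003 and -0.0086 over 5mC genes), and no differentiated sample correlated best with its own number over 5hmC genes, so the numbers were not taken as pairs. Over 5hmC genes differentiated replicate 2 correlated with undifferentiated replicate 3 (0.19), and differentiated replicate 3 with undifferentiated replicate 2 (0.16). Pairings of different numbers were not fitted. With the replicate number as a block, 28 5hmC genes were higher and 79 lower with a long-arm median of -0.051, and 157 regions were higher and 310 lower; 72 5mC genes were higher and 59 lower, and 97 regions were higher and 87 lower.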
